A study of Saccharomyces cerevisiae with 12 samples.

Results

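Small-subunit ribosome assembly genes are the 59 genes of Saccharomyces cerevisiae described here, out of 5449 genes measured. They were chosen by name, as proteins of the small-subunit processome and of later pre-40S particles, with earlier results of these data known. A probe set was found for 59 of 59 genes, 58 through the current gene symbol and 1, DBP4, through a synonym. None of these probe sets was shared with another gene, and 0 genes had an array at the lowest deposited intensity.

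Eukaryotic ribosomes are built in the nucleolus, where RNA polymerase I makes a long precursor RNA that holds the 18S rRNA of the small (40S) subunit. The small-subunit processome is a large particle of proteins and the U3 small nucleolar RNA that assembles on this precursor as it is transcribed, folds it and allows its first cleavages. Later factors accompany the pre-40S particle to the cytoplasm, where the last cut makes the mature 18S end. In yeast these genes are known to be expressed together and to follow growth rate and nutrient supply.

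The arrays compared EC1118, an industrial wine strain that is diploid, with CEN.PK113-7D, a laboratory strain that is haploid and of mating type a, each grown at 15 °C and at 30 °C. The 4 groups were EC1118 at 15 °C, EC1118 at 30 °C, CEN.PK113-7D at 15 °C and CEN.PK113-7D at 30 °C, with 3 biological replicates each and 1 Affymetrix Yeast Genome 2.0 array per replicate. All cultures were anaerobic chemostats at steady state on minimal medium with anaerobic growth factors, limited by nitrogen. Because the dilution rate fixes the growth rate, at 0.05 per h in every group, the temperatures were compared at the same growth rate. A single strain stands for each background, so strain differences hold for these 2 strains. Whether the probes match both strains equally well was not checked, so strain differences are differences in array signal. The array reads each mRNA relative to the other mRNAs of a culture, so RNA per cell was not measured.

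Values are linear intensities as deposited, whose median per array ran from 329 to 371 and was higher at 30 °C than at 15 °C in both strains. Replicates correlated across genes with r from 0.975 to 0.994. The replicate with the lowest mean correlation with the others of its group, 0.978, was replicate 3 of CEN.PK113-7D at 15 °C. It also stood apart in the alpha-pheromone gene MF(ALPHA)1, with intensities of 505, 776 and 2364 over the 3 arrays of that group. Of the 4 alpha-specific genes, 0 rose and 2 fell at 15 °C in EC1118, and 3 rose and 0 fell in CEN.PK113-7D, with a median change of 1.64 and a highest of 4.25 in log2. Without replicate 3, 2 rose there, with a median of 1.11. All 4 were lower in EC1118 than in CEN.PK113-7D at 15 °C (median -2.78, or -2.38 without that replicate). Cells of mating type a are known to keep these genes off, so this measurement goes against the label, and its source was not tested. The other mating genes went with the labels: of the 8 haploid-specific genes, 8 were lower in EC1118 than in CEN.PK113-7D at both temperatures, as were 6 of 6 a-specific genes. For the whole set of assembly genes, call counts and medians that rest on CEN.PK113-7D at 15 °C are given below with and without that replicate. Reported calls of these genes that were lost on its omission are named. Other results that rest on this group include it. Among them are values of role groups and other lists, counts over both strains or temperatures, and changes of single genes. How far its omission moves those is not given here.

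Relative mRNA levels of these genes were higher in the cold in both strains. For each array the level was summarised as the median, over the 59 genes, of the log2 intensity minus that gene's mean over all 12 arrays. In EC1118 the summaries were 0.36, 0.25 and 0.33 at 15 °C, against 0.0021, -0.085 and -0.18 at 30 °C. In CEN.PK113-7D they were 0.36, 0.27 and 0.049 at 15 °C, against -0.48, -0.53 and -0.44 at 30 °C. The temperatures did not overlap in either strain. At 15 °C the arrays of the 2 strains overlapped, whereas at 30 °C the 3 EC1118 arrays were above the 3 of CEN.PK113-7D. The low value at 15 °C in CEN.PK113-7D was that of replicate 3, which was the lowest of its group for 52 of 59 genes. Why this array was lower was not tested.

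**Figure D1:**
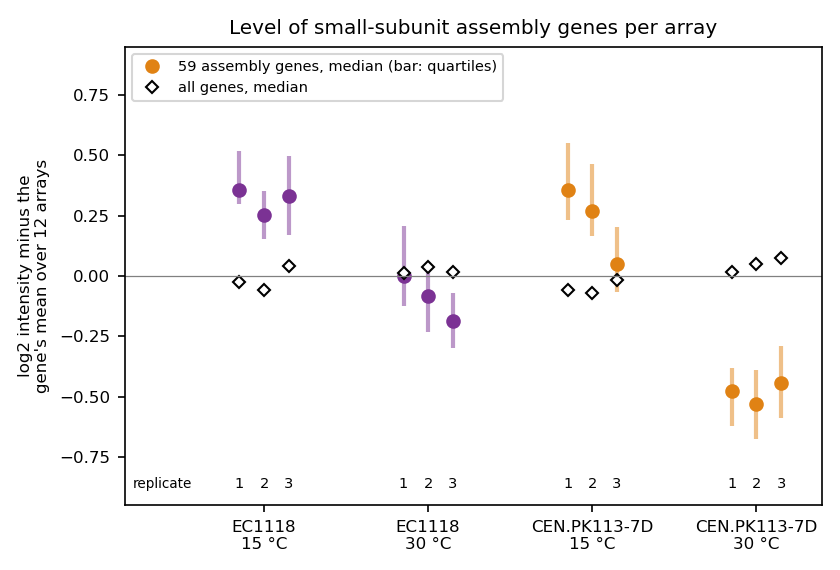
Level of the 59 small-subunit assembly genes on each of 12 arrays, as the median log2 intensity minus the gene's mean over all arrays (y axis), by strain and temperature (x axis). Filled circles are medians of the 59 genes (purple for EC1118, orange for CEN.PK113-7D), bars are their quartiles and open diamonds are medians of all genes. The 15 °C arrays lie above the 30 °C arrays within each strain, and the lowest 15 °C array is replicate 3 of CEN.PK113-7D, at 0.049.

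Differences of single genes were tested with limma over all 5449 genes, and a gene is called here where its Benjamini-Hochberg adjusted p was under 0.05. All changes are given on the log2 scale with the limma standard error after ±, as 15 °C minus 30 °C for temperature and EC1118 minus CEN.PK113-7D for strain. In EC1118, 38 of the 59 genes (64.4%) rose at 15 °C and 1 fell, where 24.2% of all genes rose and 30.0% fell. The CEN.PK113-7D cultures had 52 that rose (88.1%) and 1 that fell, where 21.8% of all genes rose and 36.6% fell. Their median change was 0.43 in EC1118, against -0.036 for all genes, and 0.73 in CEN.PK113-7D, against -0.11 for all genes. Relative to the median gene the shift was 0.47 in EC1118 and 0.84 in CEN.PK113-7D. Rises of at least 2-fold were found for 3 genes in EC1118, where 2.68% of all genes had one, and for 15 in CEN.PK113-7D, where 2.92% had one.

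Replicates were also compared array by array. For 43 genes every 15 °C array of EC1118 was above every 30 °C array, which held for 28.8% of all genes. In CEN.PK113-7D this was so for 54 genes, against 23.8% of all genes. Rises past the threshold in both strains were found for 36 genes, where 15.1% of all genes had them. A rise in CEN.PK113-7D with no call in EC1118 was found for 16 more, against 6.37% of all genes. UTP7 was the 1 gene that rose in EC1118 without a call in CEN.PK113-7D, against 7.71% of all genes, and 4 genes, UTP22, ENP2, BUD22 and PNO1, passed in neither strain, against 27.9%. In CEN.PK113-7D ENP2 (adjusted p as low as 0.0176) passed under 10 of 20 alternative settings and UTP22 under 3 of 20, quantile normalization and median centring among them. A call in one strain and not in the other is no test of a difference between them; that test follows further down. Without replicate 3 of CEN.PK113-7D at 15 °C, 53 genes rose and 1 fell in that strain, with a median change of 0.83.

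**Figure D2:**
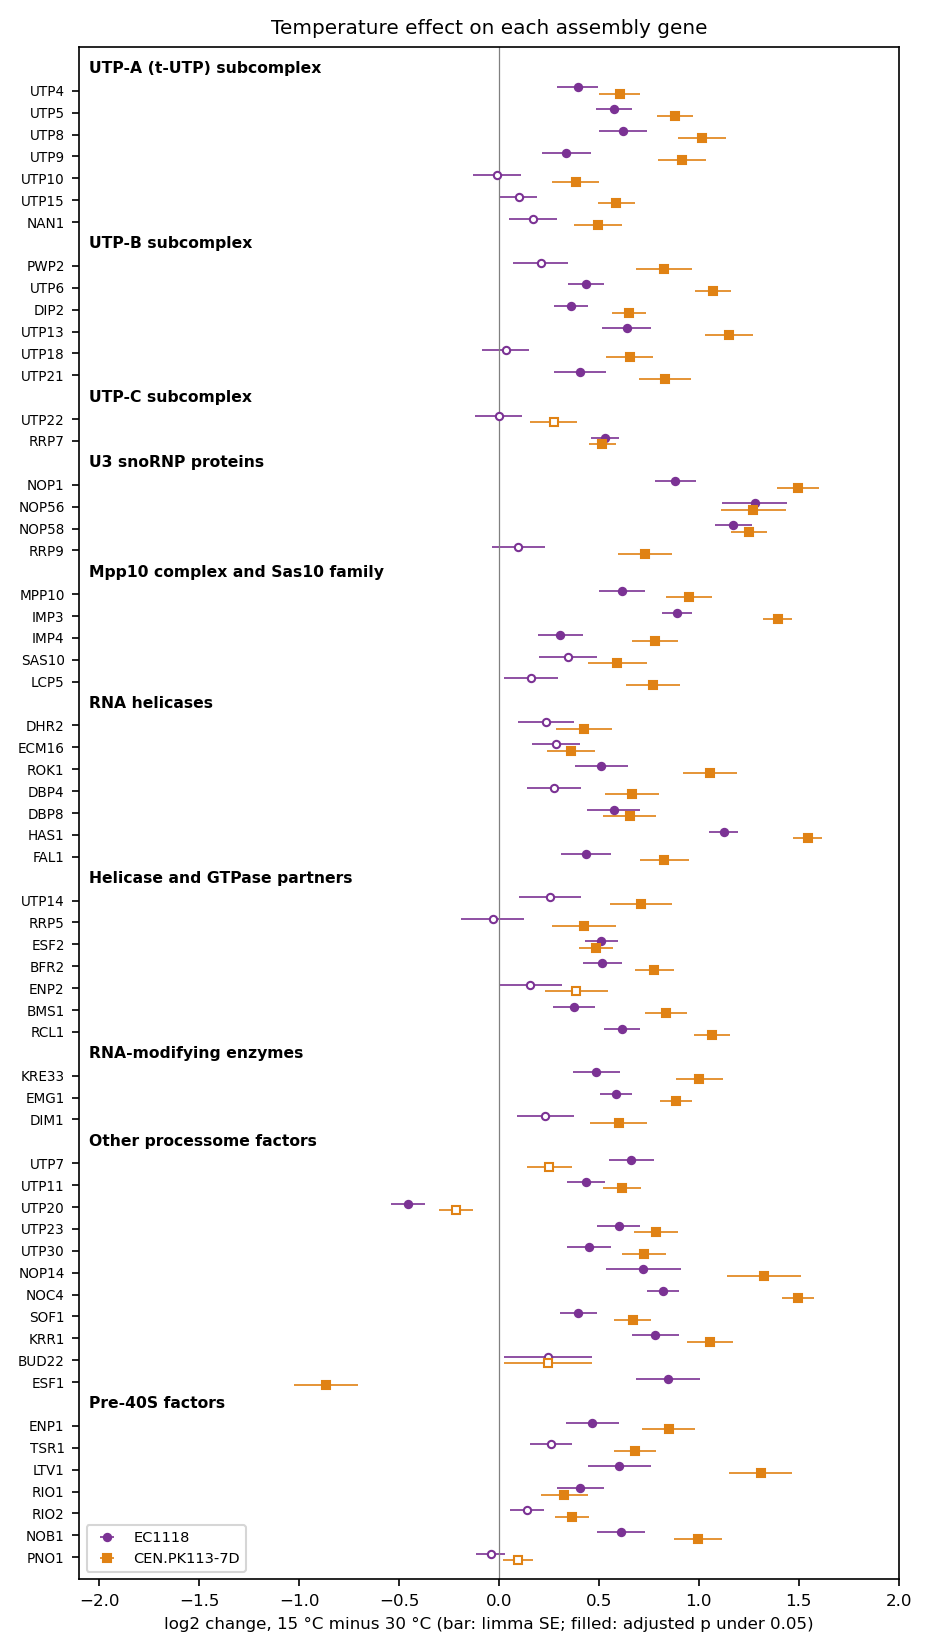
Temperature effect on each of the 59 genes, as log2 change at 15 °C minus 30 °C (x axis), grouped by role (y axis). Circles are EC1118 and squares CEN.PK113-7D, bars are limma standard errors and filled symbols have an adjusted p under 0.05. Most symbols lie right of 0, and the exceptions past the threshold are UTP20 in EC1118 and ESF1 in CEN.PK113-7D.

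The UTP-A subcomplex binds the 5′ end of the precursor RNA first, and its members are also called t-UTPs for their link to transcription of the ribosomal DNA. In EC1118, 4 of its 7 genes rose at 15 °C (median change 0.34), and in CEN.PK113-7D 7 of 7 rose (median change 0.60). The background for this and each later role group is the share that rose among the 59 genes and among all genes. These shares were 64.4% and 24.2% in EC1118, and 88.1% and 21.8% in CEN.PK113-7D. UTP5 (YDR398W), a subunit with WD repeats, had intensities of 642, 628 and 729 at 15 °C in EC1118, against 420.4, 463 and 455 at 30 °C. In CEN.PK113-7D its intensities were 499, 479.5 and 412 at 15 °C, against 238, 269.6 and 247 at 30 °C. Neither temperature pair overlapped, and at each temperature the EC1118 arrays were the higher ones. The temperature change of UTP5 was 0.58 ± 0.091 (adjusted p = 0.00045) in EC1118 and 0.88 ± 0.091 (adjusted p = 2.87e-05) in CEN.PK113-7D. UTP8, which is also known for a part in tRNA export, changed by 0.62 ± 0.12 (adjusted p = 0.0016) in EC1118 and by 1.02 ± 0.12 (adjusted p = 6.68e-05) in CEN.PK113-7D. For UTP10, a long protein of helical repeats, the change was -0.011 ± 0.12 (adjusted p = 0.954) in EC1118 and 0.38 ± 0.12 (adjusted p = 0.0181) in CEN.PK113-7D, where the call was lost when replicate 2 of CEN.PK113-7D at 30 °C or replicate 1 or 2 of CEN.PK113-7D at 15 °C was left out (adjusted p at most 0.0705).

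UTP-B is a second preformed subcomplex, which joins after UTP-A and contacts both the precursor and U3 RNA. Its 6 genes rose in 4 cases in EC1118 (median change 0.38) and in 6 cases in CEN.PK113-7D (median change 0.83). UTP6 (YDR449C) had intensities of 286, 257 and 233 at 15 °C in EC1118, against 196, 179 and 196 at 30 °C. In CEN.PK113-7D the values were 343, 337 and 297 at 15 °C, against 160.2, 145 and 159.8 at 30 °C. The strains changed places with temperature: EC1118 was the lower strain at 15 °C and the higher one at 30 °C, with no overlap in either case. The strain call for UTP6 at 30 °C was lost when replicate 2 of CEN.PK113-7D or replicate 1 or 3 of EC1118 at 30 °C was left out (adjusted p at most 0.0815). Its strain call at 15 °C rested on single arrays too, as given further down. UTP6 rose by 0.44 ± 0.090 (adjusted p = 0.0022) in EC1118 and by 1.07 ± 0.090 (adjusted p = 8.15e-06) in CEN.PK113-7D. UTP21 (YLR409C) read 428, 402 and 373 at 15 °C in EC1118, against 359, 292 and 264 at 30 °C. Its CEN.PK113-7D arrays read 569, 534 and 438 at 15 °C, against 284, 264 and 315 at 30 °C. UTP21 thus rose without overlap in both strains, by 0.40 ± 0.13 (adjusted p = 0.0232) in EC1118 and by 0.83 ± 0.13 (adjusted p = 0.000362) in CEN.PK113-7D. The EC1118 call for UTP21 was lost when replicate 2 or 3 of EC1118 at 30 °C or replicate 1 or 2 of EC1118 at 15 °C was left out, with an adjusted p of at most 0.0902. UTP18, which recruits the nuclear exosome to the processome, changed by 0.033 ± 0.12 (adjusted p = 0.833) in EC1118 and by 0.65 ± 0.12 (adjusted p = 0.000915) in CEN.PK113-7D.

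UTP-C is represented by 2 genes that differed from each other. RRP7 (YCL031C) had intensities of 463, 440.2 and 451 at 15 °C in EC1118, against 309, 314 and 314 at 30 °C. In CEN.PK113-7D they were 467, 413 and 401 at 15 °C, against 278, 302 and 314 at 30 °C. The 15 °C arrays of each strain were above its 30 °C arrays, and the rise was 0.53 ± 0.069 (adjusted p = 0.000144) in EC1118 and 0.52 ± 0.069 (adjusted p = 0.000141) in CEN.PK113-7D. Its partner UTP22 did not pass, with -0.0011 ± 0.12 (adjusted p = 1) in EC1118 and 0.27 ± 0.12 (adjusted p = 0.0685) in CEN.PK113-7D.

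The 4 U3 particle proteins among the 59 had the largest median rise of the 10 role groups in both strains, 1.03 in EC1118 and 1.26 in CEN.PK113-7D. SNU13, also a core protein of the particle, is on the list of further factors, and with it the medians were 0.88 in EC1118 and 1.25 in CEN.PK113-7D. Calls were made for 3 of 4 in EC1118 and for 4 of 4 in CEN.PK113-7D. NOP1 (YDL014W), yeast fibrillarin, is the methyltransferase of the box C/D small nucleolar particles. Its intensities were 2446, 2159.8 and 2094 at 15 °C in EC1118, against 1338, 1151 and 1146 at 30 °C. CEN.PK113-7D had 2176, 2096 and 1793 at 15 °C, against 786, 657 and 704 at 30 °C. No 15 °C array came near a 30 °C array, and the rise was 0.88 ± 0.10 (adjusted p = 8.19e-05) in EC1118 and 1.50 ± 0.10 (adjusted p = 3.32e-06) in CEN.PK113-7D, a 1.84-fold and a 2.82-fold difference. NOP56 (YLR197W) and NOP58 (YOR310C) form the scaffold that holds NOP1 on the RNA. NOP56 had 832, 650.4 and 971 at 15 °C in EC1118, against 362, 338 and 300.2 at 30 °C, and 837, 729 and 796 at 15 °C in CEN.PK113-7D, against 259.6, 368 and 359.9 at 30 °C. NOP58 had 1509, 1225 and 1335 at 15 °C in EC1118, against 657, 598 and 548 at 30 °C, and 1399.7, 1333 and 1260.5 at 15 °C in CEN.PK113-7D, against 527, 572 and 578 at 30 °C. Both scaffold genes were more than 2-fold higher at 15 °C in each strain, and the strains overlapped at each temperature. NOP56 changed by 1.28 ± 0.16 (adjusted p = 0.000134) in EC1118 and by 1.27 ± 0.16 (adjusted p = 0.000114) in CEN.PK113-7D. For NOP58 the change was 1.17 ± 0.092 (adjusted p = 9.09e-06) in EC1118 and 1.25 ± 0.092 (adjusted p = 4.15e-06) in CEN.PK113-7D. RRP9, the protein specific to U3, differed from this pattern with 0.10 ± 0.13 (adjusted p = 0.563) in EC1118 and 0.73 ± 0.13 (adjusted p = 0.00098) in CEN.PK113-7D.

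The Mpp10 complex (MPP10, IMP3 and IMP4) holds U3 RNA in its pairing with the precursor, and SAS10 and LCP5 share a domain with each other. Of these 5 genes, 3 rose in EC1118 (median change 0.35) and 5 in CEN.PK113-7D (median change 0.78). IMP3 (YHR148W) read 573, 538 and 616 at 15 °C in EC1118, against 325, 297 and 309 at 30 °C. In CEN.PK113-7D it read 499, 508 and 479 at 15 °C, against 174, 204 and 189 at 30 °C. EC1118 was above CEN.PK113-7D at each temperature without overlap, and both strains had their high values in the cold. The rise of IMP3 was 0.89 ± 0.074 (adjusted p = 1.18e-05) in EC1118 and 1.39 ± 0.074 (adjusted p = 7.57e-07) in CEN.PK113-7D. MPP10 rose by 0.62 in EC1118 and by 0.95 in CEN.PK113-7D. IMP4 rose by 0.31 in EC1118 and by 0.78 in CEN.PK113-7D, and its EC1118 call was lost when replicate 2 or 3 of EC1118 at 30 °C, replicate 1, 2 or 3 of EC1118 at 15 °C or replicate 1 of CEN.PK113-7D at 30 °C was left out (adjusted p at most 0.129).

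RNA helicases unwind the pairs between small nucleolar RNAs and the precursor. In EC1118, 4 of 7 helicase genes rose (median change 0.43), and in CEN.PK113-7D 7 of 7 did (median change 0.66). HAS1 (YMR290C), a DEAD-box helicase needed for both ribosomal subunits, had the largest rise of the 59 genes in CEN.PK113-7D. Its intensities were 564, 533 and 514 at 15 °C in EC1118, against 266, 227 and 247 at 30 °C. They were 754, 737 and 681 at 15 °C in CEN.PK113-7D, against 242, 258 and 244 at 30 °C. At 30 °C the strains overlapped, and at 15 °C every EC1118 array was below every CEN.PK113-7D array. The rise was 1.12 ± 0.072 (adjusted p = 3.94e-06) in EC1118, or 2.18-fold, and 1.55 ± 0.072 (adjusted p = 4.10e-07) in CEN.PK113-7D, or 2.92-fold. ECM16 (YMR128W), also known as Dhr1, is the DEAH-box helicase that releases U3 from the precursor. It had 435, 352 and 402 at 15 °C in EC1118, against 364, 329 and 284 at 30 °C, and 338, 281 and 259 at 15 °C in CEN.PK113-7D, against 222, 225 and 233 at 30 °C. Its temperatures overlapped in EC1118, where the change was 0.29 ± 0.12 (adjusted p = 0.0669) and passed under 6 of 20 alternatives, and did not overlap in CEN.PK113-7D, where it was 0.36 ± 0.12 (adjusted p = 0.0248). The CEN.PK113-7D call for ECM16 was lost when replicate 1 or 2 of CEN.PK113-7D at 30 °C or replicate 1 of CEN.PK113-7D at 15 °C was left out (adjusted p at most 0.0947). ROK1 rose by 0.51 in EC1118 and by 1.05 in CEN.PK113-7D, and FAL1 by 0.43 in EC1118 and by 0.83 in CEN.PK113-7D.

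A further 7 genes encode partners of these enzymes, among them the GTPase BMS1 with its bound protein RCL1, and UTP14, which activates ECM16. In EC1118 4 rose (median change 0.38) and in CEN.PK113-7D 6 rose (median change 0.71). RCL1 (YOL010W), a cyclase-like protein, had intensities of 327, 319 and 300.4 at 15 °C in EC1118, against 200.3, 187 and 232 at 30 °C. CEN.PK113-7D arrays had 387, 413 and 361 at 15 °C, against 171, 188 and 194 at 30 °C. Both strains rose without overlap, and in the cold EC1118 was the lower strain. The rise of RCL1 was 0.62 ± 0.090 (adjusted p = 0.00029) in EC1118 and 1.07 ± 0.090 (adjusted p = 8.54e-06) in CEN.PK113-7D. RRP5 (YMR229C), a long RNA-binding protein that takes part in both subunits, read 731, 623 and 631 at 15 °C in EC1118, against 742, 747 and 554 at 30 °C. In CEN.PK113-7D it read 685, 636 and 485 at 15 °C, against 515, 419 and 404 at 30 °C. The temperatures overlapped in both strains, and the change was -0.032 ± 0.16 (adjusted p = 0.884) in EC1118 and 0.43 ± 0.16 (adjusted p = 0.0409) in CEN.PK113-7D. The call in CEN.PK113-7D was lost when replicate 2 or 3 of EC1118 at 15 °C, replicate 2 or 3 of CEN.PK113-7D at 30 °C or replicate 1 or 2 of CEN.PK113-7D at 15 °C was left out, with an adjusted p of at most 0.139.

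Of the 3 enzymes that modify 18S rRNA, 2 rose in EC1118 and 3 in CEN.PK113-7D. EMG1 (YLR186W) methylates a pseudouridine of 18S rRNA. It had 914, 872 and 925 at 15 °C in EC1118, against 626, 555 and 625 at 30 °C, and 862, 978 and 974 at 15 °C in CEN.PK113-7D, against 463, 533 and 529 at 30 °C. The temperatures did not overlap in either strain, and the rise was 0.59 ± 0.080 (adjusted p = 0.000195) in EC1118 and 0.88 ± 0.080 (adjusted p = 1.34e-05) in CEN.PK113-7D. KRE33, the acetyltransferase of 18S rRNA, rose by 0.49 ± 0.12 (adjusted p = 0.00529) in EC1118 and by 1.003 ± 0.12 (adjusted p = 6.13e-05) in CEN.PK113-7D. DIM1, the dimethylase of the 18S 3′ end, changed by 0.23 ± 0.14 (adjusted p = 0.192) in EC1118 and by 0.60 ± 0.14 (adjusted p = 0.00454) in CEN.PK113-7D.

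The remaining processome factors included both genes that fell, UTP20 in EC1118 and ESF1 in CEN.PK113-7D. Of 11 genes, 9 rose and 1 fell in EC1118 (median change 0.60), and 7 rose and 1 fell in CEN.PK113-7D (median change 0.67). NOC4 (YPR144C) and NOP14 (YDL148C) bind each other in the processome. NOC4 had 334, 311 and 346 at 15 °C in EC1118, against 172, 196 and 193 at 30 °C, and 351, 376 and 315 at 15 °C in CEN.PK113-7D, against 119.8, 121 and 127 at 30 °C. NOP14 had 264, 219 and 209 at 15 °C in EC1118, against 177, 143 and 106 at 30 °C, and 234, 194 and 159 at 15 °C in CEN.PK113-7D, against 75.4, 74.5 and 81.4 at 30 °C. Both genes were higher in the cold without overlap in each strain, and their 30 °C arrays were higher in EC1118 than in CEN.PK113-7D. NOC4 rose by 0.82 ± 0.080 (adjusted p = 2.53e-05) in EC1118 and by 1.50 ± 0.080 (adjusted p = 7.57e-07) in CEN.PK113-7D. NOP14 rose by 0.72 ± 0.19 (adjusted p = 0.00793) in EC1118 and by 1.33 ± 0.19 (adjusted p = 0.000195) in CEN.PK113-7D. KRR1 (YCL059C), an RNA-binding protein with KH folds, read 727, 701 and 822 at 15 °C in EC1118, against 487, 418 and 405 at 30 °C. Its CEN.PK113-7D arrays read 551, 561 and 441 at 15 °C, against 274, 243 and 228 at 30 °C. EC1118 was the higher strain at both temperatures, and KRR1 rose by 0.78 ± 0.12 (adjusted p = 0.000325) in EC1118 and by 1.06 ± 0.12 (adjusted p = 4.44e-05) in CEN.PK113-7D.

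ESF1 (YDR365C), a nucleolar protein needed early in 18S processing, was the 1 gene with opposite calls. In EC1118 it had intensities of 307, 255 and 383 at 15 °C, against 194, 186 and 143 at 30 °C. In CEN.PK113-7D it had 315, 260.2 and 283 at 15 °C, against 503, 482 and 579.6 at 30 °C. At 15 °C the strains overlapped, and at 30 °C every EC1118 array was far below every CEN.PK113-7D array. ESF1 rose by 0.85 ± 0.16 (adjusted p = 0.00142) in EC1118 and changed by -0.87 ± 0.16 (adjusted p = 0.00105) in CEN.PK113-7D. UTP20 (YBL004W), a very large protein of helical repeats, was lower in the cold. It had 549.5, 487 and 522 at 15 °C in EC1118, against 757, 720.2 and 659.5 at 30 °C, and 516, 479.6 and 434 at 15 °C in CEN.PK113-7D, against 529, 534 and 593 at 30 °C. Its arrays did not overlap in either strain, and the change was -0.45 ± 0.085 (adjusted p = 0.00131) in EC1118 and -0.21 ± 0.085 (adjusted p = 0.0517) in CEN.PK113-7D. The CEN.PK113-7D value passed under 2 of 20 alternative settings.

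UTP7 (YER082C) and BUD22 (YMR014W) were the other factors of this group with weak changes in CEN.PK113-7D. UTP7, a protein with WD repeats, read 307, 279 and 302 at 15 °C in EC1118, against 183, 223 and 159.8 at 30 °C, and 292, 273 and 244 at 15 °C in CEN.PK113-7D, against 228, 216 and 233 at 30 °C. Its 15 °C arrays were above the 30 °C arrays in both strains, with a change of 0.66 ± 0.11 (adjusted p = 0.000725) in EC1118 and 0.25 ± 0.11 (adjusted p = 0.0787) in CEN.PK113-7D. The CEN.PK113-7D value passed under 7 of 20 alternatives, among them quantile normalization and median centring. BUD22 read 151, 130.1 and 143 at 15 °C in EC1118, against 136, 122 and 102 at 30 °C, and 210.3, 169.6 and 147 at 15 °C in CEN.PK113-7D, against 149, 104 and 202 at 30 °C. Replicates of BUD22 spread widely, its temperatures overlapped in both strains, and it changed by 0.25 ± 0.22 (adjusted p = 0.37) in EC1118 and by 0.25 ± 0.22 (adjusted p = 0.356) in CEN.PK113-7D.

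**Figure D3:**
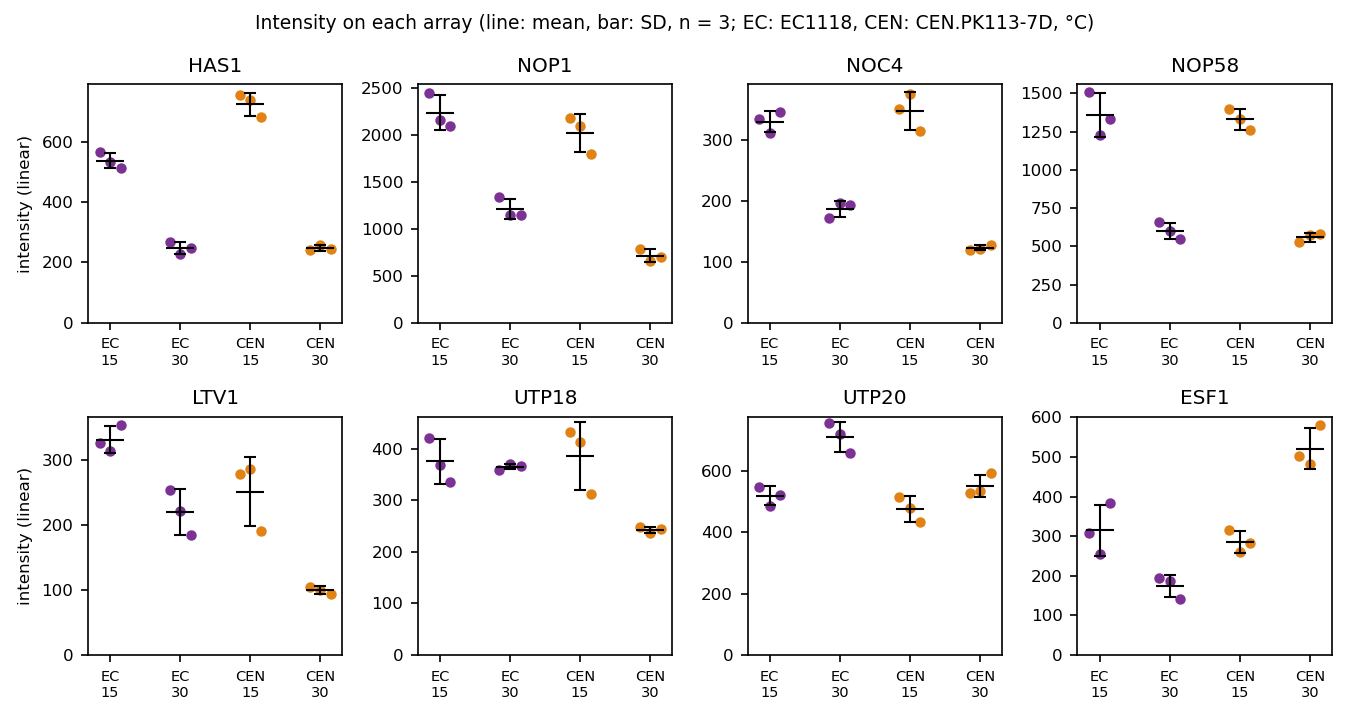
Linear intensity (y axis) of 8 of the genes on each array, by strain and temperature (x axis); points are arrays, horizontal lines group means and bars the SD over 3 arrays. HAS1, NOP1, NOC4, NOP58 and LTV1 are higher at 15 °C in both strains, UTP18 only in the CEN.PK113-7D arrays without overlap, UTP20 is lower at 15 °C, and ESF1 moves in opposite directions.

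Pre-40S factors act after the processome has come apart. In EC1118 4 of 7 rose (median change 0.41), and in CEN.PK113-7D 6 of 7 rose (median change 0.68). LTV1 (YKL143W), whose release from the particle is a late step of assembly, had 327, 314 and 354 at 15 °C in EC1118, against 253, 222 and 184 at 30 °C. In CEN.PK113-7D it had 278, 286 and 190.2 at 15 °C, against 105, 101 and 93.8 at 30 °C. The temperatures did not overlap, and the lowest 15 °C array of CEN.PK113-7D was replicate 3. LTV1 rose by 0.60 ± 0.16 (adjusted p = 0.00836) in EC1118 and by 1.31 ± 0.16 (adjusted p = 7.44e-05) in CEN.PK113-7D. NOB1, the endonuclease that cuts the 3′ end of 18S rRNA, rose by 0.61 ± 0.12 (adjusted p = 0.00177) in EC1118 and by 0.99 ± 0.12 (adjusted p = 7.55e-05) in CEN.PK113-7D. RIO1 (YOR119C), an atypical protein kinase, read 142, 124 and 163 at 15 °C in EC1118, against 112, 111 and 99.8 at 30 °C, and 122, 109 and 127 at 15 °C in CEN.PK113-7D, against 83.0, 102 and 100.1 at 30 °C. It rose without overlap, by 0.41 ± 0.12 (adjusted p = 0.0127) in EC1118 and by 0.33 ± 0.12 (adjusted p = 0.0322) in CEN.PK113-7D. The CEN.PK113-7D call was lost when replicate 1 of CEN.PK113-7D at 30 °C or replicate 1 or 3 of CEN.PK113-7D at 15 °C was left out. PNO1 (YOR145C), the KH-domain partner of NOB1, read 1023, 950.5 and 1059 at 15 °C in EC1118, against 1102, 1017 and 1001 at 30 °C, and 867, 876 and 781 at 15 °C in CEN.PK113-7D, against 813, 733 and 815 at 30 °C. Its temperatures overlapped in both strains, with -0.042 ± 0.074 (adjusted p = 0.658) in EC1118 and 0.10 ± 0.074 (adjusted p = 0.288) in CEN.PK113-7D. In CEN.PK113-7D it passed under quantile normalization and under median centring, with a lowest adjusted p of 0.00903.

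At 30 °C most of these genes had a higher array signal in the wine strain than in the laboratory strain. The difference was past the threshold upward for 38 of the 59 genes (64.4%) and downward for 1, ESF1, where 21.0% of all genes were higher in EC1118 and 20.4% lower. The median difference was 0.43, against 0.014 for all genes. For 44 genes the 3 EC1118 arrays lay above the 3 CEN.PK113-7D arrays, which held for 28.4% of all genes. This comparison shares its CEN.PK113-7D arrays with the temperature comparison of that strain and its EC1118 arrays with that of EC1118. LTV1 had the largest difference, 1.13 ± 0.16 (adjusted p = 0.000299), followed by NOP14 with 0.85 ± 0.19 (adjusted p = 0.00453), UTP5 with 0.83 ± 0.091 (adjusted p = 5.86e-05) and KRR1 with 0.81 ± 0.12 (adjusted p = 0.000351). All 5 genes of the Mpp10 and Sas10 group were higher in EC1118, as were all 3 RNA-modifying enzymes, with 0.25 ± 0.080 (adjusted p = 0.0317) for EMG1, whose call was lost when replicate 1 or 3 of EC1118 at 30 °C or replicate 1 of CEN.PK113-7D at 30 °C was left out. SAS10 did not pass without replicate 2 of CEN.PK113-7D at 30 °C (adjusted p = 0.0511). The lowest values were those of ESF1 with -1.59 ± 0.16 (adjusted p = 3.43e-05), BUD22 with -0.30 ± 0.22 (adjusted p = 0.299) and UTP7 with -0.27 ± 0.11 (adjusted p = 0.0752), of which UTP7 passed under 2 of 20 alternatives and BUD22 under 1 of 19. NOP56, NOP58 and HAS1, which were among the genes with the largest rises in the cold, differed by 0.032 ± 0.16 (adjusted p = 0.897), 0.10 ± 0.092 (adjusted p = 0.406) and -0.011 ± 0.072 (adjusted p = 0.923).

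At 15 °C the strains differed in fewer of these genes. EC1118 was higher for 7 genes (UTP5, IMP3, ECM16, BMS1, UTP23, KRR1 and PNO1) and lower for 3 (UTP6, HAS1 and RCL1), which is 11.9% and 5.08% of them, where 19.0% of all genes were higher and 14.0% lower. The median difference was 0.083, against 0.052 for all genes. With quantile normalization 4 genes were higher and 4 lower. KRR1 had 0.54 ± 0.12 (adjusted p = 0.00566), UTP5 0.52 ± 0.091 (adjusted p = 0.00156) and ECM16 0.44 ± 0.12 (adjusted p = 0.0174). On the other side were HAS1 with -0.43 ± 0.072 (adjusted p = 0.00131), UTP6 with -0.34 ± 0.090 (adjusted p = 0.0162) and RCL1 with -0.29 ± 0.090 (adjusted p = 0.0302), beside UTP21, which did not pass, with -0.35 ± 0.13 (adjusted p = 0.0618), but did under 6 of 20 alternatives. In 49 of 59 genes the difference between strains was closer to 0 at 15 °C than at 30 °C, which held for 56.0% of all genes. All 7 genes that were higher in EC1118 in the cold were higher at 30 °C too. Higher at both temperatures were thus 11.9% of the 59 genes, near the 10.1% of all genes. At 30 °C 30 genes were higher in EC1118 with no call at 15 °C, against 10.7% of all genes.

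The calls at 15 °C depended on single arrays, and no share of all genes is given here for the fits without an array. Without replicate 3 of CEN.PK113-7D, the array low in these genes, 3 genes were higher in EC1118 and 4 lower, with a median difference of -0.0061. Without replicate 3 of EC1118, 2 were higher and 1 lower, and 5 and 6 genes in all were called without replicate 1 of EC1118 and without replicate 2 of CEN.PK113-7D. UTP5, KRR1 and HAS1 kept their calls under every alternative run. IMP3 lost its call under 16 of 20 alternatives, BMS1 under 8, ECM16 and PNO1 under 6 each, RCL1 under 5, UTP6 under 4 and UTP23 under 2, with adjusted p up to 0.152. Single arrays whose omission did this were replicate 1 or 3 of EC1118 at 15 °C or replicate 2 or 3 of CEN.PK113-7D at 15 °C for ECM16, replicate 1 or 3 of EC1118 at 15 °C or replicate 3 of CEN.PK113-7D at 15 °C for PNO1, and replicate 3 of EC1118 at 15 °C or replicate 1 or 2 of CEN.PK113-7D at 15 °C for UTP6. They were replicate 1, 2 or 3 of EC1118 at 15 °C or replicate 1 or 2 of CEN.PK113-7D at 15 °C for RCL1, replicate 1 or 3 of EC1118 at 15 °C or replicate 2 or 3 of CEN.PK113-7D at 15 °C for BMS1, and replicate 3 of EC1118 at 15 °C for UTP23. For IMP3 they were replicate 1, 2 or 3 of EC1118 at 30 °C, replicate 1 or 3 of EC1118 at 15 °C, replicate 3 of CEN.PK113-7D at 30 °C or replicate 1, 2 or 3 of CEN.PK113-7D at 15 °C. Replicate numbers went together between the strains at 15 °C, and with the replicate number as a block 9 genes were higher and 5 lower. IMP3 was then no longer past the threshold (adjusted p = 0.0709), while FAL1 (0.0471), LTV1 (0.0409) and MPP10 (0.0383) were higher and UTP21 (0.0413) and UTP8 (0.0336) lower at those adjusted p-values.

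**Figure D4:**
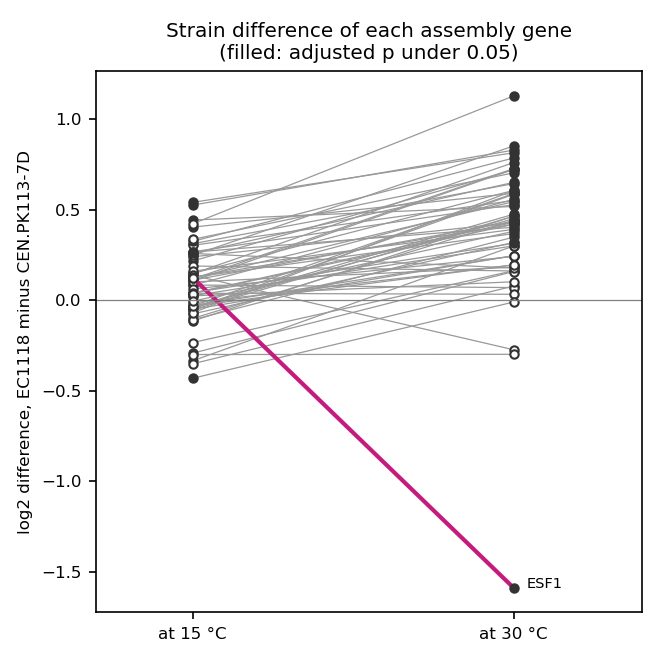
Difference between strains for each of the 59 genes, as EC1118 minus CEN.PK113-7D in log2 (y axis), at 15 °C and at 30 °C (x axis), with a line joining the values of a gene. Filled points have an adjusted p under 0.05. The values centre near 0 at 15 °C (median 0.083) and mostly above 0 at 30 °C (median 0.43), and ESF1 drops to -1.59.

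The difference of the temperature effects, EC1118 minus CEN.PK113-7D, was tested directly. It was negative for 53 of 59 genes, against 44.1% of all genes, so that their log2 change was larger in CEN.PK113-7D, and its median was -0.37, against 0.038 for all genes. Past the threshold were 8 genes (13.6%) downward and 1 (1.69%) upward, where 4.37% of all genes were lower and 8.66% higher. The 8 were NOC4 with -0.67 ± 0.11 (adjusted p = 0.00478), UTP6 with -0.63 ± 0.13 (adjusted p = 0.0101), UTP18 with -0.62 ± 0.17 (adjusted p = 0.0369), NOP1 with -0.61 ± 0.15 (adjusted p = 0.0224), IMP3 with -0.50 ± 0.11 (adjusted p = 0.0125), UTP15 with -0.49 ± 0.13 (adjusted p = 0.0355), RCL1 with -0.45 ± 0.13 (adjusted p = 0.0424) and HAS1 with -0.42 ± 0.10 (adjusted p = 0.0239). They come from 7 of the 10 role groups. ESF1 went the other way with 1.71 ± 0.23 (adjusted p = 0.00167). LTV1 had the most negative value and did not pass, with -0.71 ± 0.22 (adjusted p = 0.0655), though it did under 5 of 19 alternatives, and UTP7 and RIO1 had the highest values after ESF1, with 0.41 ± 0.16 (adjusted p = 0.12) and 0.080 ± 0.16 (adjusted p = 0.792), of which UTP7 passed under 2 of 19. NOP56, NOP58 and RRP7 had values near 0, with 0.0058 ± 0.23 (adjusted p = 0.995), -0.078 ± 0.13 (adjusted p = 0.742) and 0.014 ± 0.10 (adjusted p = 0.948).

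These counts moved with single arrays, and no share of all genes is given here for the fits without an array. Without replicate 3 of CEN.PK113-7D at 15 °C, 21 genes were lower and 1 higher, with a median of -0.44. The total was 5 without replicate 1 and 4 without replicate 2 of CEN.PK113-7D at 15 °C, 5 without replicate 2 of CEN.PK113-7D at 30 °C, and 4 without replicate 2 of EC1118 at 15 °C. ESF1, NOC4, UTP6 and IMP3 kept their calls under every alternative run. RCL1 lost its call under 11 of 19 alternatives, UTP18 under 10 of 19, UTP15 under 9 of 19, HAS1 under 5 of 19 and NOP1 under 3 of 19, with adjusted p of at most 0.0981. For NOP1 the arrays were replicate 2 of EC1118 at 15 °C, replicate 2 of CEN.PK113-7D at 30 °C or replicate 2 of CEN.PK113-7D at 15 °C, and for HAS1 replicate 3 of EC1118 at 30 °C, replicate 2 of EC1118 at 15 °C, replicate 1 of CEN.PK113-7D at 30 °C or replicate 1 or 2 of CEN.PK113-7D at 15 °C. For UTP15 they were replicate 3 of EC1118 at 30 °C, replicate 1, 2 or 3 of EC1118 at 15 °C, replicate 1 or 2 of CEN.PK113-7D at 30 °C or replicate 1 or 2 of CEN.PK113-7D at 15 °C. UTP18 depended on replicate 1, 2 or 3 of EC1118 at 30 °C, replicate 2 or 3 of EC1118 at 15 °C, replicate 1, 2 or 3 of CEN.PK113-7D at 30 °C or replicate 1 or 2 of CEN.PK113-7D at 15 °C, and RCL1 on replicate 1 or 3 of EC1118 at 30 °C, replicate 1, 2 or 3 of EC1118 at 15 °C, replicate 1, 2 or 3 of CEN.PK113-7D at 30 °C or replicate 1 or 2 of CEN.PK113-7D at 15 °C.

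**Figure D5:**
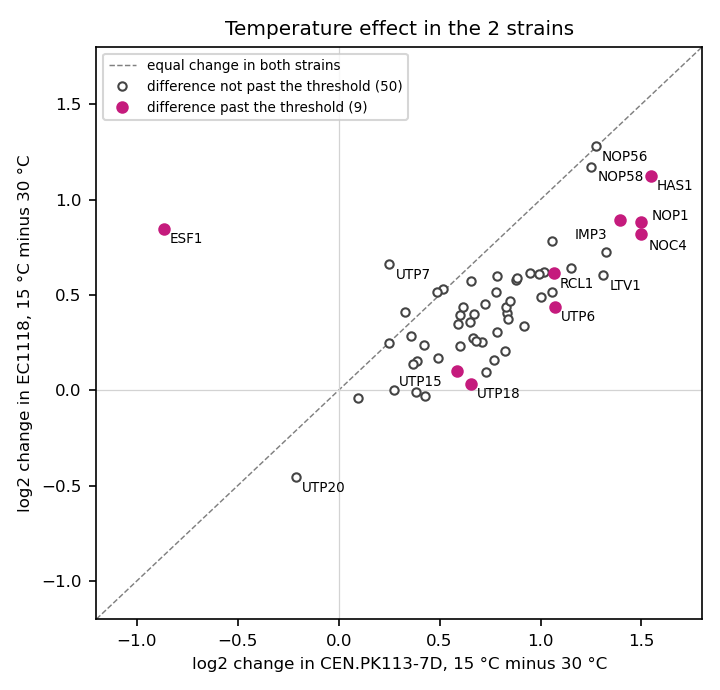
Temperature effect in EC1118 (y axis) against that in CEN.PK113-7D (x axis) for the 59 genes, both as log2 change at 15 °C minus 30 °C; the dashed line marks equal change. Filled points are the 9 genes whose difference between strains had an adjusted p under 0.05. In 53 of 59 genes the point lies below the line, and ESF1 stands alone at the upper left.

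Other genes of the same pathway moved with these 59 in part. A list of 30 further small-subunit factors had 12 higher and 3 lower genes at 15 °C in EC1118 (median change 0.23), and 18 higher and 2 lower in CEN.PK113-7D (median change 0.42). NSR1, yeast nucleolin, had the largest rise among them. It had 1729, 1644 and 1544 at 15 °C in EC1118, against 727, 646 and 579 at 30 °C, and 1549, 1626 and 1299 at 15 °C in CEN.PK113-7D, against 317, 271 and 325 at 30 °C. NSR1 was high on every cold array of both strains and lowest on the CEN.PK113-7D arrays at 30 °C. Its rise was 1.34 ± 0.11 (adjusted p = 1.18e-05) in EC1118 and 2.29 ± 0.11 (adjusted p = 5.31e-07) in CEN.PK113-7D, and the effects differed between strains by -0.95 ± 0.16 (adjusted p = 0.00464). PRP43, a DEAH-box helicase of both subunits and of splicing, rose by 0.74 in EC1118 and by 0.97 in CEN.PK113-7D, and TSR2, which escorts a ribosomal protein, by 0.78 in EC1118 and by 0.81 in CEN.PK113-7D. CKA2, a catalytic subunit of the casein kinase 2 that joins UTP-C, rose by 0.74 in EC1118 and by 0.50 in CEN.PK113-7D, and NOP6 by 0.51 in EC1118 and by 0.82 in CEN.PK113-7D.

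Factors of the large (60S) subunit also rose in most cases. Of 60, 48 rose and 0 fell in EC1118 (median change 0.57), and 51 rose and 1 fell in CEN.PK113-7D (median change 0.86). The temperature effects of 13 of the 60 differed between the strains, 12 with a larger log2 change in CEN.PK113-7D and 1 in EC1118, with a median difference of -0.28. At 30 °C 41 of the 60 (68.3%) were higher in EC1118 and 1 was lower, with a median strain difference of 0.40. For the 59 small-subunit genes these values were 64.4% and 0.43, and 21.0% of all genes were higher there. The 4 proteins of the H/ACA particles, which make pseudouridine in rRNA, rose in both strains. In EC1118 the rise was 0.44 for CBF5, the pseudouridine synthase, 0.60 for GAR1, 0.34 for NHP2 and 0.32 for NOP10. In CEN.PK113-7D it was 0.77 for CBF5, 0.88 for GAR1, 0.39 for NHP2 and 0.32 for NOP10. The proteins of the 40S subunit itself had smaller median changes. Of 53 measured genes 21 rose (39.6%) and 2 fell in EC1118 (median change 0.11), where 24.2% of all genes rose. In CEN.PK113-7D 28 rose (52.8%) and 0 fell (median change 0.16), where 21.8% of all genes rose. Some of the 53, RPS4B and RPS6B among them, were read by probe sets marked as shared with another gene.

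Among regulators of ribosome synthesis more genes fell than rose in the cold, as among all genes (24.2% up and 30.0% down in EC1118, 21.8% up and 36.6% down in CEN.PK113-7D). Of 10 regulators, 1 rose and 5 fell in EC1118 (median change -0.32), and 1 rose and 7 fell in CEN.PK113-7D (median change -0.45). TOR1, a kinase that drives ribosome synthesis on good nitrogen supply, changed by -1.04 ± 0.093 (adjusted p = 1.59e-05) in EC1118 and by -0.81 ± 0.093 (adjusted p = 5.66e-05) in CEN.PK113-7D. SFP1, a transcriptional activator of assembly genes, changed by -0.48 ± 0.12 (adjusted p = 0.00783) in EC1118 and by -0.52 ± 0.12 (adjusted p = 0.00446) in CEN.PK113-7D. SCH9, a kinase activated by TOR1, fell by 0.35 in EC1118 and by 0.42 in CEN.PK113-7D, and its EC1118 call was lost when replicate 2 or 3 of EC1118 at 30 °C or replicate 1 or 2 of EC1118 at 15 °C was left out. IFH1, an activator of ribosomal protein genes, fell by 0.78 in EC1118 and by 0.46 in CEN.PK113-7D, where the call was lost when replicate 1 of EC1118 at 30 °C, replicate 2 or 3 of CEN.PK113-7D at 30 °C or replicate 1 or 2 of CEN.PK113-7D at 15 °C was left out. The repressors of assembly genes DOT6 and TOD6 differed from each other. DOT6 changed by -0.29 ± 0.14 (adjusted p = 0.0959) in EC1118 and by -0.62 ± 0.14 (adjusted p = 0.003) in CEN.PK113-7D, and TOD6 was the 1 regulator that rose, by 0.41 ± 0.088 (adjusted p = 0.00306) in EC1118 and by 0.37 ± 0.088 (adjusted p = 0.00491) in CEN.PK113-7D. With quantile normalization IFH1, SCH9 and MRS6 did not pass in CEN.PK113-7D, with adjusted p of 0.077, 0.0776 and 0.0662. CRF1, a corepressor of ribosomal protein genes, had 39.9, 36.2 and 30.6 at 15 °C in EC1118, against 59.6, 106 and 68.3 at 30 °C, and 10.0, 11.9 and 10.0 at 15 °C in CEN.PK113-7D, against 57.6, 60.7 and 58.1 at 30 °C. With 2 CEN.PK113-7D arrays at the lowest deposited value, its fall there was at least 5.55-fold, and in EC1118 it fell 2.14-fold. MRS6, which binds SFP1, changed by -0.12 ± 0.061 (adjusted p = 0.118) in EC1118 and by -0.33 ± 0.061 (adjusted p = 0.00104) in CEN.PK113-7D. FHL1, which recruits IFH1 to ribosomal protein genes, changed by -0.15 ± 0.13 (adjusted p = 0.357) in EC1118 and by -0.015 ± 0.13 (adjusted p = 0.934) in CEN.PK113-7D.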

How the data were processed

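RNA of 12 chemostat cultures was hybridised to 12 Affymetrix Yeast Genome 2.0 arrays after biotin labelling, per the labels' protocols. The authors deposited 1 linear intensity per probe set and array. How probe sets were summarised and arrays normalized is not given in the sources used here, and the values were used as deposited, with a lowest value of 10. For arrays their number limits the precision.

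Of 5900 probe sets, 5498 had 1 gene in the platform annotation, 0 had several and 402 were unnamed here. RefSeq's gene table (assembly R64) replaced 12 outdated symbols. This gave 5449 genes, and for 47 genes with several probe sets the brightest on average was kept. Probe sets differ in brightness, so levels were compared between arrays and not between genes.

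limma 3.58.1 (R 4.3.3) was run on log2 intensities, with lmFit and eBayes, a coefficient for each group and no block, which left 8 residual and 2.22 prior degrees of freedom. P-values are two-sided and were adjusted by Benjamini-Hochberg over 5449 genes, with a threshold of 0.05. Each of 5 comparisons was adjusted separately. The fit was tested on simulated data in which most genes were unchanged. For the difference of the temperature effects it recovered 16 of 50 changes of 0.5 in log2 and 46 of 50 changes of 1. For the other comparisons it recovered between 28 and 34 of 50 changes of 0.5. Between 7 and 12 unchanged genes were called per comparison. Far more genes were called in the deposited data than were changed in the simulation, so recovery in the reported tests may differ. Genes were sorted into 10 role groups and set beside 8 other lists by name. Members and lists were chosen with earlier results of these data known. Genes given with every array's value were, per comparison, 3 genes at each end of the ranked changes, those called against the majority, and the one with the smallest adjusted p for temperature in CEN.PK113-7D in each role group.

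Alternatives were a replicate block, median centring, quantile normalization, a fit on the 2 groups alone, trend and robust eBayes, a filter on dim genes (the lowest 25% of probe sets), probe sets averaged per gene, and each array left out in turn. The joint omission of replicate 3 of CEN.PK113-7D at 15 °C and replicate 2 of EC1118 at 30 °C, the 2 arrays with the largest SD of deviations from their group means, was added after the data were seen. Arrays with the same replicate number were checked for pairing, by whether each pair's deviations from the group means correlated by more than 0.1. This held for the strains at 15 °C alone (0.478, 0.320 and 0.393), and the labels do not state such a pairing. The reported calls at 15 °C come from the fit without a block all the same. The replicate block was run only as an alternative, over all arrays. Promoter and protein sequences were not used here.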

Additional observations from a re-analysis of the deposited data

Results flagged for a closer look

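The temperature effect differed between the strains, by the test of the difference itself, for 9 of the 59 genes and for 2 of the other genes named here, NSR1 and CRF1. Of the 59 genes 13.6% were lower and 1.69% higher in this difference, where 4.37% of all genes were lower and 8.66% higher. UTP15, UTP18, NOP1, HAS1 and RCL1 lost their calls under some alternatives, as given above. The values that follow are log2 differences of the temperature effects, EC1118 minus CEN.PK113-7D. They were -0.49 for UTP15, -0.63 for UTP6, -0.62 for UTP18, -0.61 for NOP1, -0.50 for IMP3, -0.42 for HAS1, -0.45 for RCL1 and -0.67 for NOC4, all of which rose more in the cold in CEN.PK113-7D. ESF1 had 1.71, with a rise in EC1118 and a fall in CEN.PK113-7D. NSR1, yeast nucleolin, had -0.95. CRF1, a corepressor of ribosomal protein genes, had 1.38, a value for which 2 of the 3 CEN.PK113-7D arrays at 15 °C were at the lowest deposited intensity.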

How the results depend on the processing

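Under 20 alternatives, 19 of them planned, no called gene of the 59 that is named here reversed its direction, and 88 of 99 counts of called genes stayed within 1.5 times the reported one. Shares of all genes called under an alternative are not given here, so the counts that follow cannot be set against that background. With each array left out in turn, between 36 and 43 genes were called for temperature in EC1118 (reported: 39), between 49 and 55 for temperature in CEN.PK113-7D (53), between 31 and 41 for the strains at 30 °C (39), between 3 and 10 for the strains at 15 °C (10), and between 4 and 22 for the difference of the temperature effects (9). The fit of the 2 groups alone called 6 genes for the strains at 15 °C. With replicate 3 of CEN.PK113-7D at 15 °C and replicate 2 of EC1118 at 30 °C both left out, an alternative added after the data were seen, 6 were called there and 21 for the difference of the temperature effects, and the causes were not tested. The members' median strain difference at 15 °C, 0.083 as reported, was -0.0061 without replicate 3 of CEN.PK113-7D at 15 °C. Quantile normalization and median centring each gave 42 higher and 1 lower gene in EC1118, and 56 higher and 1 lower in CEN.PK113-7D, where all genes had a median of -0.11 as deposited. With the replicate block, 39 genes were higher and 1 lower for temperature in EC1118, 54 and 1 in CEN.PK113-7D, 41 and 1 for the strains at 30 °C, and 1 and 12 for the difference of the temperature effects. The labels do not pair these arrays, and at least 1 correlation of deviations per comparison was at or under 0.1. Between the strains at 15 °C the block changed no call other than those given above. The planned comparison of promoter motifs was not run.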

Other observations

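The 153 assembly factors of both subunits on the lists used here, which are not complete, were looked up among the neighbours of the 59 genes in the order of the reference gene table. None of the 59 lay next to another of the 59 (0 of 59), and 5 (8.47%) lay next to another of the 153, against 5.03% of 6021 protein-coding genes. LCP5 shares an upstream region with NSA2, a divergent pair in which NSA2 rose by 1.09 in EC1118 and by 1.49 in CEN.PK113-7D on the log2 scale. LCP5 itself was called as higher at 15 °C in CEN.PK113-7D and had no call in EC1118. UTP9 lies in tandem with RIX1, which rose by 1.03 in EC1118 and by 1.60 in CEN.PK113-7D. The other pairs, all in tandem, were DBP8 with NMD3, UTP13 with RSA3 and ESF2 with NOG2.

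Among the 59 genes a longer gene went with a smaller rise in the cold, as a description over genes that share the same arrays. Spearman's rho of gene length and log2 change was -0.354 in EC1118 and -0.217 in CEN.PK113-7D (n = 59), against -0.291 and -0.283 over all 5449 genes in those strains.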
